A study of Mus musculus with 20 samples.

Results

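Spermatogonia, the mitotic and earliest premeiotic germ cells of the testis, were compared with round spermatids, the haploid cells that follow meiosis. Samples were chosen by their labels: all 4 arrays of sorted spermatogonia and all 4 arrays of sorted round spermatids were used, 8 of the 20 arrays in the series. The other 12 arrays hold the 6 fractions that lie between these ends, from pre-leptotene to diplotene spermatocytes. The study used Affymetrix mouse expression arrays to follow transcripts through male meiosis. Both groups came from adult C57BL/6 x DBA/2J F1 males aged 10 to 16 weeks, for which no treatment is named. The age is that of the labels, and the study's methods give a narrower range. Testis cells were stained with a Hoechst dye and gated on DNA content and dye fluorescence, and RNA from at least 3 sorts was pooled for an array. An array is therefore a pool of cells and animals, and the p-values below measure the spread between such pools. Levels are log2 of the deposited signal. A probe set was tested when it reached 5, a signal of 32, on at least 2 of the 8 arrays, and 20760 of 45037 did so.

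Spermatogonia keep the germ line dividing. They depend on KIT and retinoic acid signalling to enter differentiation, and they carry the machinery of DNA replication and ribosome production. Round spermatids no longer divide: they build an acrosome over the nucleus, assemble a flagellum from a centriole, and store many messenger RNAs whose proteins are made only later, when histones are replaced by transition proteins and protamines. The X chromosome is silenced in pachytene spermatocytes. The study reports that X-linked signals rise again after late pachytene, on average to a level in round spermatids below that of spermatogonia.

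Arrays of the same group were close to each other, and the groups lay apart. Pearson's r was taken across all 45037 probe sets, tested or not, which are not independent replicates. It was 0.963 to 0.985 within spermatogonia and 0.956 to 0.988 within round spermatids. Between the groups it was 0.758 to 0.852. Spermatogonia replicate 2 was the nearest to round spermatids, with a median r of 0.82 against 0.767 to 0.783 for the other spermatogonia arrays. The median signal of an array over all probe sets was 11.1 to 12.7 on the linear scale, which is under the signal of 32 set as the floor. Of all probe sets, 38.5% to 39.6% reached log2 5 in spermatogonia against 34.6% to 36.7% in round spermatids. Over the tested probe sets the median difference, round spermatids minus spermatogonia, was -0.34. It was 0.0575 after each array was centred on its median and -0.127 after a new quantile normalization.

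Most spermatogonial markers were higher in the arrays labelled spermatogonia. Of 18 spermatogonial marker genes tested, 16 were lower in round spermatids (88.9%, beside 41.6% of all genes). The summed signal of the 18 was 38567 to 54009 in spermatogonia and 10129 to 14504 in round spermatids. Kit, the receptor of stem cell factor on differentiating spermatogonia, measured 10.51, 10.62, 11.49 and 11.13 in spermatogonia replicates 1 to 4 and 4.82, 4.81, 4.84 and 3.5 in round spermatids. All 4 spermatogonia arrays lay far above all 4 round spermatid arrays. With values under 5 raised to 5, Kit was at least 61.3-fold lower in round spermatids (log2 difference -6.45 ± 0.37 SE, adjusted p = 6.89e-07). Dmrt1, a transcription factor that holds spermatogonia out of meiosis, measured 13.71, 13.74, 14.17 and 13.89 in spermatogonia and 9.19, 7.04, 6.89 and 6.12 in round spermatids. Groups did not overlap, and round spermatid replicate 1 was the highest of its group. The same array was the highest of its group for Cdt1, Mcm2 and Zbtb16.

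Late spermatid transcripts went against the spermatogonia label. Prm1, a protamine that compacts the sperm nucleus, measured 14.99, 15.52, 14.48 and 13.94 in spermatogonia and 14.93, 14.23, 14.3 and 14.62 in round spermatids, so the groups overlapped. The difference was -0.21 (95% interval -1.01 to 0.59, adjusted p = 0.599). Akap4, the scaffold of the fibrous sheath of the tail, measured 13.43, 14.3, 12.37 and 11.1 in spermatogonia and 12.99, 12.33, 12.36 and 12.55 in round spermatids. Again the groups overlapped, with spermatogonia replicates 1 and 2 above every round spermatid array and replicate 4 below every one. Tnp2, a transition protein, behaved in the same way, at 14.65, 14.89, 13.32 and 12.45 and 14.44, 13.47, 13.96 and 14.03. Prm2, Tnp1, Odf1, Smcp, Gapdhs, Oaz3 and Tssk6 did not pass the test either, with differences of -0.57, 0.1, -0.05, -0.32, -0.33, -0.78 and -1.01. In some alternatives 3 of these passed as lower in round spermatids: Oaz3 with the array project as a fixed block over all 20 arrays (-1.03, adjusted p = 0.0427), and Prm2 (-0.93, adjusted p = 0.0309) and Tssk6 (-1.47, adjusted p = 0.0375) with array weights. The summed signal of the 19 round spermatid markers was 60421 to 302056 in spermatogonia and 129210 to 186544 in round spermatids, but only 26536 to 57136 in the 3 pre-leptotene arrays. Of these 19, 7 were higher in round spermatids (36.8%, near the 35.7% of all genes) and none was lower. Their part in the results below was not tested, but counts are also given without spermatogonia replicates 1 and 2, an alternative chosen after these values were seen.

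Transcripts of other testis cells were also compared. Of 13 macrophage markers tested 11 were lower in round spermatids (84.6%, beside 41.6% of all genes). Among them were Cd74 (10.48 in spermatogonia and 4.01 in round spermatids), Lyz2 and Ptprc. The summed signal of the 16 macrophage markers on the array was 1779 to 9390 in spermatogonia and 159 to 228 in round spermatids, and Cd68, Adgre1 and Cd163 were under log2 5 on every spermatogonia array. Of 7 Sertoli cell markers tested 2 were lower in round spermatids (28.6%, under the 41.6% of all genes). Summed signals over the 16 on the array were 5886 to 9119 in spermatogonia and 822 to 8322 in round spermatids. Of the 16 Sertoli markers, 7 had a mean log2 of at least 5 in spermatogonia and 5 had one in round spermatids. Sox9, Gata4, Gata1, Amh, Fshr and Inhba were under log2 5 on every array of both groups. Of the 7 Leydig cell markers, 3 reached such a mean in spermatogonia and 2 in round spermatids. Cyp11a1, Hsd17b3 and Nr5a1 were under log2 5 on every array of both groups. Leydig cell markers ran the other way, with 2 of 4 tested higher in round spermatids (50%, beside 35.7% of all genes) and none lower. Summed signals over the 7 on the array were 1275 to 2370 in spermatogonia and 2554 to 3585 in round spermatids. Among myoid markers 2 of 6 were lower in round spermatids (33.3%), among endothelial markers 1 of 2 (50%), and no erythroid marker was tested. In sorted pools, fewer cells of a type and less RNA per cell cannot be told apart.

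**Figure D1:**
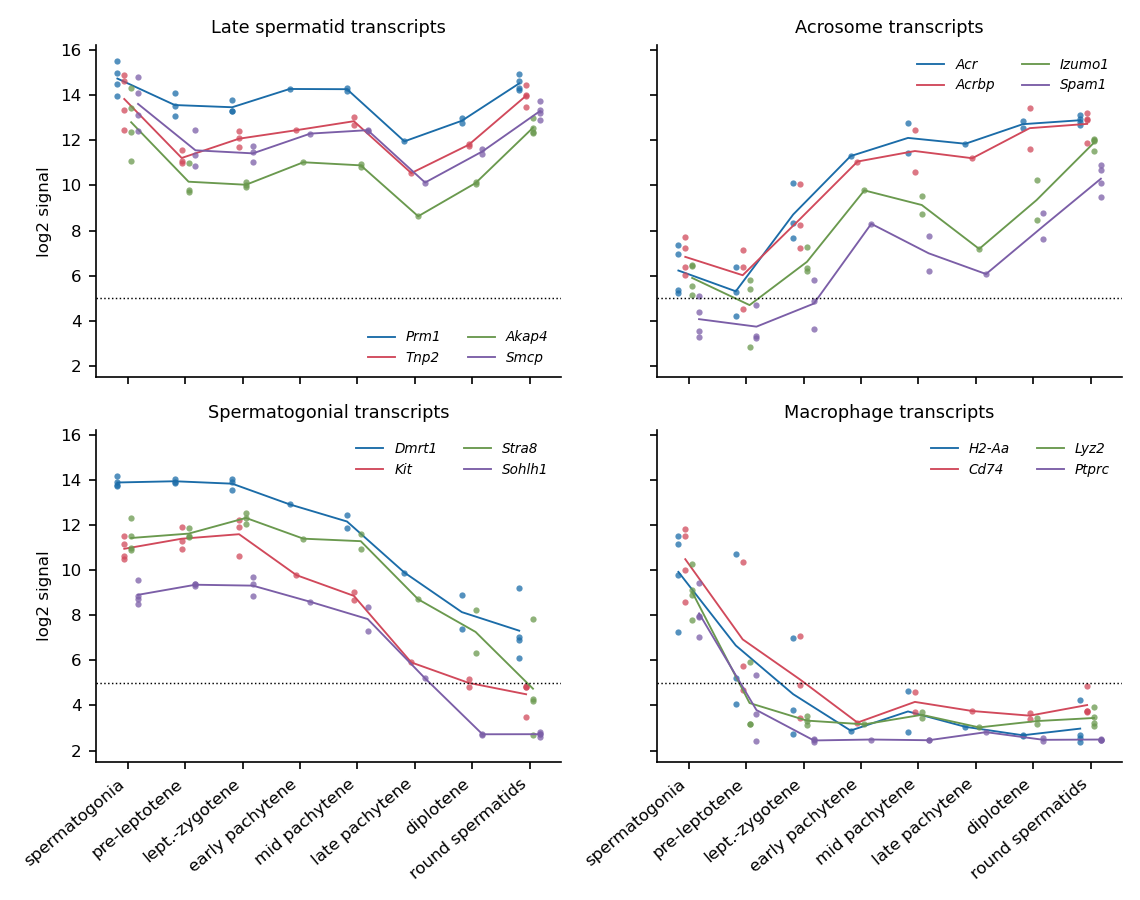
Log2 signal (vertical axis) of 4 late spermatid, 4 acrosome, 4 spermatogonial and 4 macrophage transcripts in the 8 sorted fractions (horizontal axis), where points are arrays, lines join the means and the dotted line marks log2 5. Between spermatogonia and round spermatids the late spermatid transcripts overlap, whereas the transcripts of the other panels lie apart.

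Most of the tested transcriptome differed between the ends. In limma's moderated test with Benjamini-Hochberg adjustment, 6757 probe sets (32.5%) were higher in round spermatids and 8755 (42.2%) were lower. By at least 1 on the log2 scale 6136 were higher and 8042 lower, and by at least 3 there were 2589 and 3305. On the level of genes, each represented by its probe set with the highest mean, 4137 of 11577 were higher (35.7%) and 4814 lower (41.6%). Arrays fell into projects, named in the study's own data set, and projects 5 and 8 each held both groups, as replicates 2 and 4 do. Within project 5 99.6% of the called probe sets had the same sign as in all arrays, and within project 8 99.1%. The fit that made the calls holds these same arrays, so a shared sign was favoured in advance and is no independent check.

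**Figure D2:**
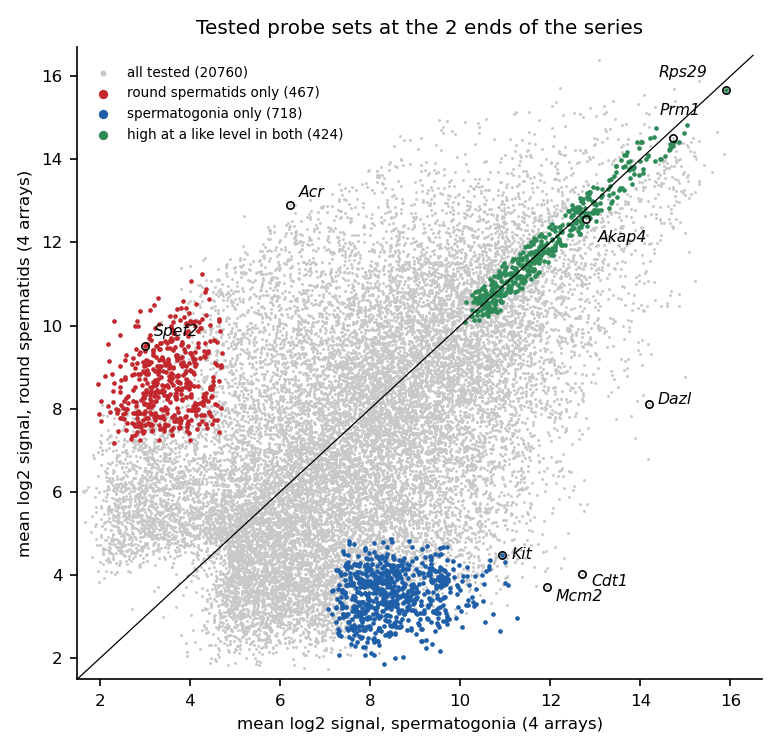
Mean log2 signal of each tested probe set in spermatogonia (horizontal axis, 4 arrays) and round spermatids (vertical axis, 4 arrays), coloured by class. The 467 probe sets exclusive to round spermatids and the 718 exclusive to spermatogonia lie at the upper left and lower right, and the 424 high at a like level lie at the top of the diagonal.

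A group of transcripts was high at a like level in both cell types. Of 1593 probe sets at log2 10 or more on all 8 arrays, 433 were higher in round spermatids, 475 were lower and 685 did not pass the test. For 424 of them, from 311 named genes, the 95% interval of the difference lay within 1 on either side of 0. Rps29, a ribosomal protein, had the highest lowest array, with 15.93, 15.8, 15.92 and 15.92 in spermatogonia and 15.87, 15.69, 15.63 and 15.48 in round spermatids. Its groups overlapped, at a difference of -0.23, and on spermatogonia replicates 1 to 3 it was the highest signal of the array, so the level there is the top of the scale. Outside the ribosome, Eif5a, a translation elongation factor, measured 14.91, 14.78, 15.15 and 15.27 and 14.77, 14.79, 14.87 and 14.85, a difference of -0.21 with an interval of -0.69 to 0.28. Tubb4b, a beta tubulin used in spindles and axonemes, differed by -0.08, the chaperone Hsp90aa1 by 0.39 and the helicase Ddx5 by 0.23. Hsp90aa1 passed the test after centring of the arrays, at 0.79 (adjusted p = 0.0303), and with the array project as a fixed block over all 20 arrays, at 0.58 (adjusted p = 0.0109), and Rps29 after quantile normalization, at -0.54 (adjusted p = 0.0394). Sycp3, a lateral element protein of the synaptonemal complex, was also in the group, with means of 12.57 and 12.48. The median of the 424 probe sets stayed between 11.6 and 11.9 in all 8 fractions.

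Levels in the fractions between the ends differed within the group high in both. Of the 1593 probe sets high at both ends, 74 were lower in pre-leptotene cells than at either end by at least 1, but of the 424 at a like level only 1 was. Prm1 had a mean of 14.73 in spermatogonia, 13.56 in pre-leptotene cells, 11.95 in the single late-pachytene array and 14.52 in round spermatids. Akap4 ran from 12.8 through 10.16 and 8.63 to 12.56. The mean of mid-pachytene, late-pachytene and diplotene cells was set against each end in the fit over all 20 arrays. For 65 of the 1593 it was lower than both ends by at least 1, at adjusted p below 0.05. By the same limits it was higher for 19. Of the 65, 26 also had the pre-leptotene low.

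Transcripts exclusive to round spermatids were those at 7 or more on all 4 of its arrays and under 5 on all 4 spermatogonia arrays. There were 467 such probe sets, from 388 named genes. Spef2, needed for the central pair of the axoneme, measured 2.46, 3.65, 2.69 and 3.21 in spermatogonia and 9.34, 9.37, 9.51 and 9.8 in round spermatids. The limits of the class fix that the groups lie apart, so its members are described here without a test. With low values raised to 5, Spef2 was at least 22.7-fold higher. Rfx4, a factor of the family that drives ciliary genes, measured 2.4, 4.24, 3.23 and 4.79 and 8.98, 9.53, 9.48 and 10, at least 22.6-fold higher. Foxj1, the master regulator of motile cilia, had means of 4.4 and 9.37. The axonemal dynein chains Dnaic1 and Dnaic2, the central pair protein Hydin and the CatSper subunit gene Tmem249 belonged to the class as well. So did Dnmt3l, the cofactor of the de novo DNA methyltransferases, at 3.49, 3.01, 3.31 and 3.44 and 7.91, 8.51, 7.77 and 7.05.

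Most of this class was already on before the haploid stage. Taking the earliest fraction with a mean of 7 or more, 4 probe sets came on in leptotene-zygotene, 101 in early-pachytene, 78 in mid-pachytene, 95 in late-pachytene and 62 in diplotene cells. For 127 (27.2%) round spermatids were the only fraction at that level. Median levels over the 467 were 3.51 in spermatogonia, 3.21 in pre-leptotene, 5.93 in early-pachytene, 7.92 in diplotene and 8.57 in round spermatids. Early-pachytene and late-pachytene are single arrays, so those steps have no replicates. The size of the class depended on its limits, at 766 probe sets when on from log2 6 and 248 when on from 8, and on the arrays, at 707 without spermatogonia replicates 1 and 2.

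Exclusive to spermatogonia, by the same limits turned around, were 718 probe sets from 596 named genes. Sohlh1, a helix-loop-helix factor of differentiating spermatogonia, measured 8.71, 8.84, 8.47 and 9.58 in spermatogonia and 2.82, 2.73, 2.6 and 2.74 in round spermatids. Orc1, a subunit of the origin recognition complex, measured 7.88, 8.73, 9.5 and 8.73 and 2.83, 3.95, 4.44 and 3.47. As above, the limits of the class fix the gap between the groups. Kit, Sohlh2, the growth regulator Mycn, the POU factor Pou3f1, thymidine kinase Tk1 and the X-linked haem lyase Hccs were in the class, and so were Cd74, H2-Aa, Lyz2, Ptprc and Laptm5 from the macrophage markers. Only 17 of the 718 were at 7 or more in spermatogonia alone and 29 were last on in pre-leptotene cells, whereas 241 were last on in leptotene-zygotene, 142 in early-pachytene and 242 in mid-pachytene. The median level was 8.38 in spermatogonia, 8.28 in leptotene-zygotene, 6.64 in mid-pachytene and 3.57 in round spermatids. Without round spermatid replicate 1 the count was 1118.

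**Figure D3:**
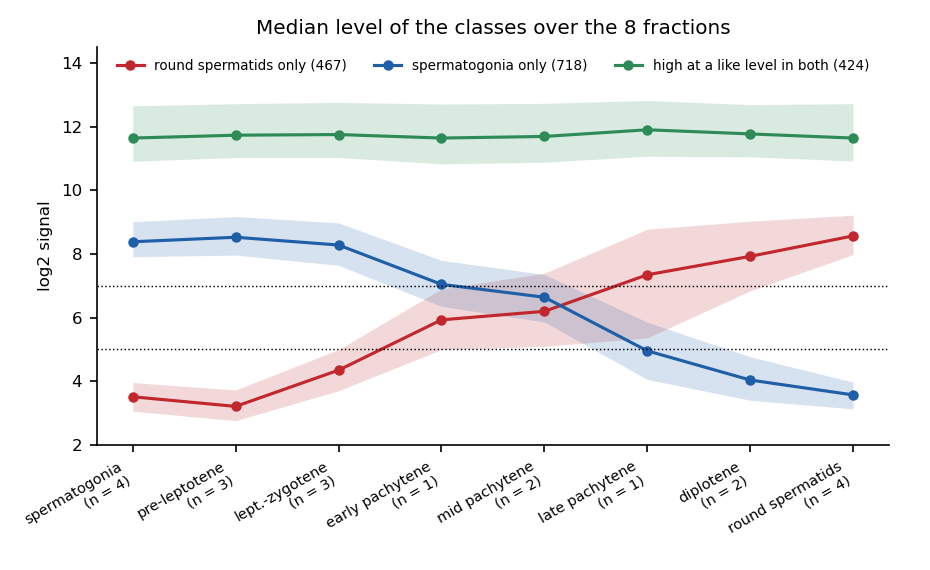
Median log2 signal (vertical axis) of the probe set classes in the 8 sorted fractions (horizontal axis, with the number of arrays); shading spans the quartiles over probe sets and dotted lines mark 5 and 7. The exclusive classes cross between mid-pachytene and late-pachytene cells, and the probe sets at a like level stay between 11.6 and 11.9.

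Spermatogonial genes were mostly lower: 24 of 27 tested were lower in round spermatids (88.9%, beside 41.6% of all genes), 2 were higher and 1 did not pass. Their median difference was -4.95 against -0.21 over all genes tested. Crabp1, which binds retinoic acid, measured 12.83, 12.62, 12.69 and 12.87 in spermatogonia and 7.26, 5.28, 5.78 and 3.84 in round spermatids. The fall was at least 121-fold with low values raised to 5. Stra8, the retinoic acid target that licenses meiosis, differed by -6.68, Uchl1, a ubiquitin hydrolase of stem cells, by -6.53, and Zbtb16, a repressor that sustains self-renewal, by -5.98. Id4 and Dmrtb1 went the other way. Id4, an inhibitor of helix-loop-helix factors, measured 7.29, 7.29, 6.95 and 8.96 in spermatogonia and 8.67, 9.8, 10.27 and 9.57 in round spermatids. Spermatogonia replicate 4 lay above round spermatid replicate 1, so the groups overlapped, and the difference was 1.95 (adjusted p = 0.0047). Without spermatogonia replicates 1 and 2 it was 1.62 at an adjusted p of 0.0556. Dmrtb1, which acts at the passage from mitosis to meiosis, rose by 2.1.

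DNA replication genes were lower in round spermatids in 30 of 36 cases (83.3%, beside 41.6% of all genes), 1 was higher and 5 did not pass, and the median was -3.08. Cdt1, the licensing factor that loads the MCM helicase, measured 12.74, 12.69, 12.72 and 12.71 in spermatogonia and 7.83, 4.03, 2.03 and 2.21 in round spermatids. Round spermatid replicate 1 was well above the other arrays of its group, and still below every spermatogonia array. Against the floor of 5 the fall was at least 129-fold (difference -8.69 ± 1.08 SE, adjusted p = 5.18e-05). Mcm3, a helicase subunit, measured 11.75, 11.4, 12.4 and 12.01 and 6.47, 3.57, 2.71 and 3.61, with no overlap. Its partners Mcm2 and Mcm4 differed by -8.2 and -7.38, with round spermatid values under 5 outside replicate 1, so these sizes are not exact. Mcm7 differed by only -0.56. That difference just missed the threshold (adjusted p = 0.0521) and passed it in the fit over all 20 arrays (adjusted p = 0.0114). Rpa1, which coats single-stranded DNA in replication and in recombination, was the only member that rose, by 1.17 ± 0.24.

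The promoters of the replication genes were examined because E2F factors are known to drive many of them. Windows of 300 bases, 250 before to 50 after the start, came from RefSeq on GRCm38.p6. Of the 36 genes 31 had a window. An E2F match (TTTGGCGC or TTTCCCGC on either strand) was in 9 of these 31 (29.0%), in Cdc6, Cdt1, Mcm3, Mcm5, Mcm6, Mcm7, Pola1, Pold1 and Rfc3. The same letters were in 3.17% of the windows of all genes tested and in 1.63% of all 27025 windows. A match describes the sequence and is not a measured site. Mcm3 (chr1:20820263-20820562, minus strand) and Cdt1 (chr8:122567765-122568064, plus strand) are shown because they had the largest falls of these 9, with the matches in capitals, 2 in Mcm3 and 1 in Cdt1.
Mcm3: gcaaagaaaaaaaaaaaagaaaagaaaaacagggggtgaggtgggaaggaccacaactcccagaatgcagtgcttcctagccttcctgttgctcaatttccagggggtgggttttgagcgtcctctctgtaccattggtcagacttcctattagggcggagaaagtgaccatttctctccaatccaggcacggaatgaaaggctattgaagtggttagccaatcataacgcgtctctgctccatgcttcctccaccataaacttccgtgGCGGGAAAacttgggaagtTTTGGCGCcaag
Cdt1: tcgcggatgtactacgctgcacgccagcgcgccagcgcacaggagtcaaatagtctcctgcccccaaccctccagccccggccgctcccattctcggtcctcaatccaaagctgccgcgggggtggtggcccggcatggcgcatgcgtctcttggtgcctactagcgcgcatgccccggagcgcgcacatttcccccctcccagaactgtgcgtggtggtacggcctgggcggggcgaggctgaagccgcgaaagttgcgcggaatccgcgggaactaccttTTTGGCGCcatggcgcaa

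Genes of ribosome production were mostly lower in round spermatids. Of 27 ribosome biogenesis genes 21 were lower (77.8%, beside 41.6% of all genes), 2 were higher and 4 did not pass. Their median was -2.78. Of 30 cytosolic ribosomal protein genes 24 were lower (80%), 2 higher and 4 not called, with a median of -1.64. Ncl, nucleolin, measured 13.75, 13.72, 14.36 and 14.41 in spermatogonia and 9.1, 7.78, 8.35 and 8.05 in round spermatids, without overlap. Dkc1, the X-linked pseudouridine synthase, differed by -6.9, and Noc2l, a nucleolar maturation factor, by -6.44. Rpl22 was lower in round spermatids but high in both groups, with means of 15.08 and 11.78. The 2 that rose were Rpl39l, a form found in male germ cells, by 1.26, and Rpl22l1, by 0.94. The latter missed the threshold without spermatogonia replicate 2 or 3 or round spermatid replicate 3, at adjusted p of 0.0551 to 0.0571, without spermatogonia replicates 1 and 2 together (0.0795) and after quantile normalization (0.0515).

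Cell cycle genes were called no more often than all genes. Of 36 tested 13 were lower (36.1%, beside 41.6% of all genes), 9 were higher (25%, beside 35.7%) and 14 did not pass. The largest falls were those of Cenpa, the centromeric histone, and Ccnd1, the cyclin of early G1, at -8.07 and -6.82. Cenpa measured 12.17, 12.4, 12.47 and 11.91 in spermatogonia and 5.22, 4.49, 3.72 and 3.25 in round spermatids. With the floor of 5 the fall was at least 145-fold. Genes of the division itself were among those that rose: Aurka, a spindle pole kinase, measured 8.16, 8.93, 8.73 and 8.77 and 11.45, 12.45, 12.53 and 12.42, a rise of 3.57 ± 0.31. Round spermatid replicate 1 was the lowest of its group, but above every spermatogonia array. Plk1 rose by 2.28 and Ccnb2, a cyclin of entry into division, by 1.99.

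Meiotic prophase genes were lower in 9 of 25 cases (36%) and higher in 8 (32%), near the shares of all genes, with 8 not called. Tex11, an X-linked recombination gene, measured 11.94, 11.36, 12.5 and 11.44 in spermatogonia and 6.46, 4.69, 4.82 and 4.01 in round spermatids, and the groups were apart. Spo11, whose enzyme makes the breaks that start recombination, went up from 4.3, 6.63, 5.7 and 6.52 to 10.06, 11.13, 11 and 10.46, also without overlap, a difference of 4.87 ± 0.51. Sycp1, the transverse filament of the synaptonemal complex, differed by -1.32.

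Germ granule and piRNA genes were higher in 12 of 23 cases (52.2%, beside 35.7% of all genes) and lower in 7 (30.4%, beside 41.6%). Dazl, an RNA-binding protein of early germ cells, measured 13.88, 14.26, 14.38 and 14.23 in spermatogonia and 9.58, 8.42, 7.19 and 7.25 in round spermatids. Piwil1, the PIWI protein of pachytene piRNAs, went the opposite way, from 7.29, 7.48, 6.34 and 8.05 to 11.3, 11.55, 11.24 and 11.31. Neither gene overlapped between the groups. Pabpc2, a poly(A)-binding protein of spermatids, rose by 5.28, and Mov10l1, a helicase needed to make piRNAs, differed by -2.65.

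DNA methylation and pluripotency-linked regulators were lower in 13 of 18 cases (72.2%, beside 41.6% of all genes) and higher in 2 (11.1%, beside 35.7%). Dnmt3b, a de novo methyltransferase, measured 11.22, 10.56, 11 and 12 in spermatogonia and 6.53, 3.99, 4.36 and 2.94 in round spermatids, and the fall was at least 56.2-fold. The maintenance enzyme Dnmt1 differed by -4.66 and Dnmt3a by -4.95. With Ezh2, the Polycomb methyltransferase, which rose by 0.86, Dnmt3l was the only member that rose. Without spermatogonia replicates 1 and 2 Ezh2 differed by 0.84 at an adjusted p of 0.064.

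Immediate early genes, which are induced within minutes of a stimulus, were lower in round spermatids in 18 of 22 cases (81.8%, beside 41.6% of all genes), with 1 higher and 3 not called. Fos measured 12.5, 12.51, 11.72 and 14.09 in spermatogonia and 10.03, 9.41, 9.78 and 10.03 in round spermatids. The spermatogonia arrays were all above the round spermatid arrays. Egr1 differed by -2.96 and the heat shock gene Hspa1b by -4.79, whereas the co-chaperone gene Dnajb1 rose by 1.99.

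Acrosome and gamete fusion genes were higher in round spermatids in 27 of 28 cases, beside 35.7% of all genes, with a median of 5.29. Acr, the protease proacrosin, had the largest rise of all named genes once low values were raised to 5. It measured 5.36, 7.37, 5.24 and 6.95 in spermatogonia and 12.68, 12.95, 13.13 and 12.8 in round spermatids. The groups were more than 5 units apart at their nearest, and the rise was 101-fold (6.66 ± 0.48 on the log2 scale, adjusted p = 1.76e-06). Izumo1, the sperm protein that binds the egg receptor, measured 5.56, 6.42, 5.13 and 6.48 and 11.54, 12.02, 12.04 and 11.99, a rise of 5.99. Spam1, a hyaluronidase, rose by 6.22, Acrv1, a protein of the acrosomal matrix, by 5.75, Prss21, a membrane-bound serine protease, by 6.58, and Tmem190 by 6.54. Gopc, a Golgi protein needed to form the acrosome, was the exception at -0.61 (adjusted p = 0.238).

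Flagellum and axoneme genes were higher in 46 of 48 cases (95.8%, beside 35.7% of all genes), with a median of 4.6, and none was lower. Only Akap4 and Odf1, a pair of late tail genes described above, did not pass. Spag16, a central pair protein, measured 3.83, 6.07, 4.67 and 5.91 in spermatogonia and 11.03, 11.62, 11.77 and 11.85 in round spermatids, with no overlap. The tektins, filament proteins of the axonemal doublets, all rose: Tekt1 by 5.24, Tekt2 by 4.94, Tekt3 by 5.92, Tekt4 by 6.17 and Tekt5 by 4.6. The centrins, calcium-binding proteins of the centriole, divided. Cetn1 rose by 4.73, Cetn4 by 3.77 and Cetn3 by 1.07 (adjusted p = 0.00443), whereas Cetn2 fell by 4.35. Meig1, needed to assemble the sperm tail, was abundant at both ends, at 12.22 and 15.72, yet rose by 3.5.

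Sperm ion channel and PKA genes were higher in 16 of 20 cases (80%, beside 35.7% of all genes), and none was lower. Catsper1, the pore of the sperm calcium channel, measured 5.53, 6.98, 5.32 and 5.92 in spermatogonia and 11.55, 11.47, 11.01 and 10.57 in round spermatids, a rise of 5.21. All round spermatid arrays were above. Pde1c, a calmodulin-dependent phosphodiesterase, rose by 6.61 and Tmem249 by 6.33.

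Transcription regulators known from spermatids were higher in 14 of 18 cases, beside 35.7% of all genes. They were lower in 3 of 18, beside 41.6% of all genes, and the median was 3.82. Crem, a cAMP-responsive activator that spermatids require, measured 6.2, 8.36, 6.39 and 6.96 in spermatogonia and 10.97, 12.03, 12.56 and 11.95 in round spermatids, which did not overlap. Gtf2a1l, the germ cell form of a TFIIA subunit, rose by 5.87, Rfx2, a ciliary regulator, by 4.22, Mybl1, a regulator of the pachytene programme, by 4.51, and Sox30 by 3.41. Taf7l, an X-linked TFIID subunit, differed by -4.19.

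Of 19 spermatid chromatin genes, 7 were higher (36.8%, close to the 35.7% of all genes), 4 lower and 8 not called. The 8 were protamines, transition proteins and spermatid histone variants. Hspa2, the chaperone of transition proteins, rose by 4.12 and Brdt, the reader of hyperacetylated histones, by 3.24. Without spermatogonia replicates 1 and 2 the count of higher genes was 11, with Tnp2 at 1.09 (adjusted p = 0.0391) and Prm3, a cytoplasmic protamine, at 1.99 (adjusted p = 0.00459) where they had been 0.15 and 0.59. The wider list of round spermatid genes went from 14 to 18 higher of 30 in that setting, while 27 acrosome genes and 45 flagellum genes were higher and 30 replication genes lower.

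**Figure D4:**
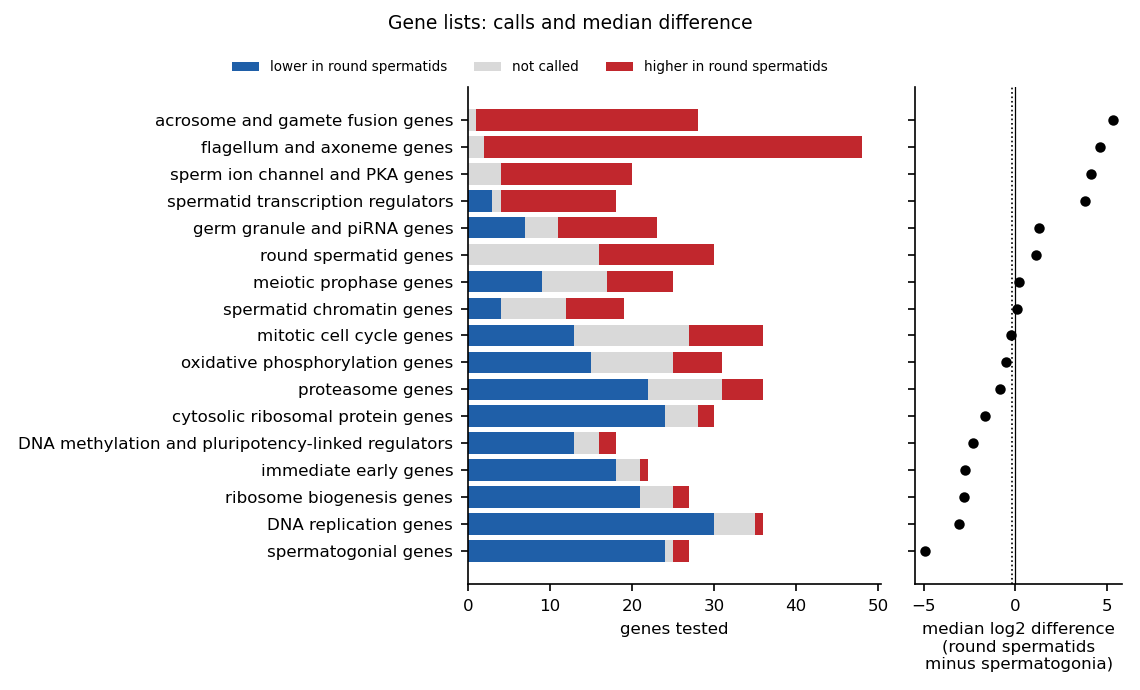
Left, the number of tested genes in each list that were lower, not called or higher in round spermatids. Right, the median log2 difference of each list, with a dotted line at -0.21, the median over all genes tested; acrosome genes lie at 5.29 and spermatogonial genes at -4.95.

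The window around the start was also read for the lists of spermatid genes. Of 28 acrosome genes 23 had a window, and 26.1% of these were rich in CpG, with an observed over expected CpG ratio of at least 0.6, against 72.2% of the windows of all genes tested. For the 41 flagellum genes with a window the share was 48.8%, and for the 24 of 30 round spermatid genes, a list that shares Acrv1, Spaca1, Izumo1 and other members with the acrosome list, 4.17%. Of the 15 spermatid transcription regulators with a window 12 were rich in CpG. Windows of the genes exclusive to spermatogonia were rich in 79.1% and those of the genes at a like level in 86.4%. For the genes exclusive to round spermatids the comparison was void, since 76.3% had a window and at least 80% was required of every set. The full cAMP response element, TGACGTCA on both strands, was in 1 of the 23 acrosome windows (4.35%), beside 3.35% of all genes tested. That window, Izumo1 (chr7:45621561-45621860, plus strand), is shown with the element in capitals, and Prm1 (chr16:10796774-10797073, minus strand) with its single CpG in capitals.
Izumo1: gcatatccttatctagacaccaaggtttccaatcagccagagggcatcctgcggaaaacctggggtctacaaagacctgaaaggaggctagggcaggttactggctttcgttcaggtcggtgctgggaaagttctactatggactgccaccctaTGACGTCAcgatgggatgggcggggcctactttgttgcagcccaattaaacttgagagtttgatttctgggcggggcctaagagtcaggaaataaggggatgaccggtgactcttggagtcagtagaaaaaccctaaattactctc
Prm1: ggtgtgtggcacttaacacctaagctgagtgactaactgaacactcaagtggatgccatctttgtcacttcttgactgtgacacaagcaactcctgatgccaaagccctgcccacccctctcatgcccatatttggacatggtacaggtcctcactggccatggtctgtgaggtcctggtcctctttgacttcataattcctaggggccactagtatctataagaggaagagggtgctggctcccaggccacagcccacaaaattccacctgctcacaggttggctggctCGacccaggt

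Pairs of a widely expressed gene and a relative that is prominent in the testis, here called the testis form, were compared next, since spermatids use their own versions of several enzymes. Of 36 pairs, 29 had both forms tested. The 29 include Odc1 with Oaz3, an enzyme and its antizyme rather than related forms, of which Odc1 was higher and Oaz3 not called. In 12 of the 29 the widely expressed form was lower and the testis form higher in round spermatids, and in 0 the reverse. Over all genes tested 41.6% were lower and 35.7% higher. How often unrelated genes oppose each other in this way was not counted. The 12 include Papola and Papolb, although probe sets of Papola were called in both directions. In 5 pairs both forms were higher and in 2 both were lower. Psma7, a proteasome subunit, measured 11.32, 11.28, 11.06 and 11.77 in spermatogonia and 6.84, 6.82, 6.45 and 5.99 in round spermatids, whereas its germ cell form Psma8 measured 9.02, 9.53, 9.37 and 10.44 and 10.92, 11.68, 11.7 and 11.54. Both differences passed, at -4.84 and 1.87. Somatic cytochrome c, Cycs, differed by -4.14 and testis cytochrome c, Cyct, by 2.61. The glucose transporters Slc2a1 and Slc2a3 differed by -4.36 and 3.9. Lactate dehydrogenase was among the pairs in which both rose, Ldha by 4.36 and the testis form Ldhc by 3.23. Phosphoglycerate kinase was the least firm pair. X-linked Pgk1 differed by -2.85. The testis form Pgk2 measured 12.73, 13.72, 11.38 and 10.83 in spermatogonia and 13.5, 13.72, 13.8 and 13.64 in round spermatids, groups that overlapped, with a difference of 1.5 (adjusted p = 0.0329) that was -0.00418 within project 5 and 2.81 within project 8, and 1.05 without spermatogonia replicate 4. It missed the threshold without spermatogonia replicate 3 or 4 or any single round spermatid array, at adjusted p of 0.0514 to 0.0915.

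**Figure D5:**
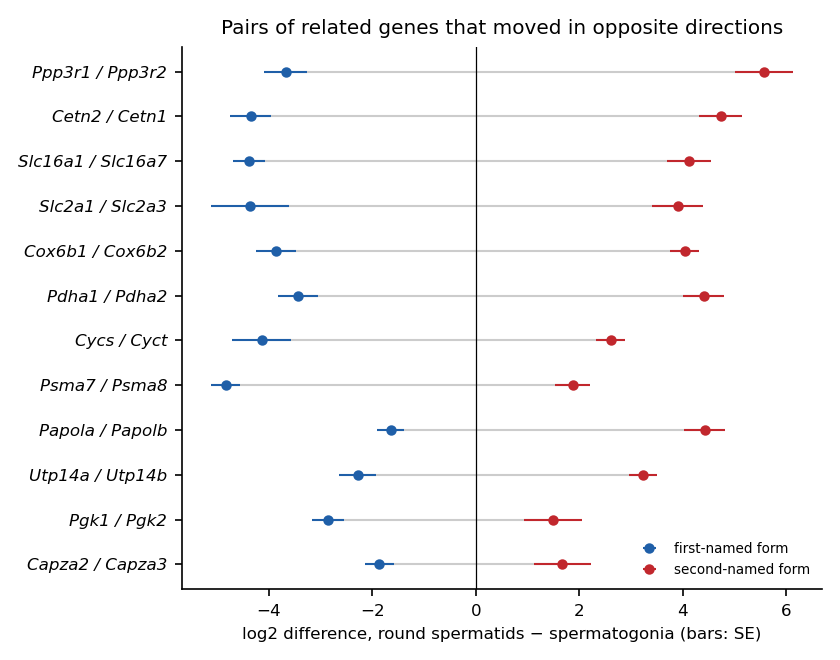
Log2 difference, round spermatids minus spermatogonia (horizontal axis, bars are SE), of both members of the 12 pairs in which the widely expressed form was lower and the testis form higher. Pgk2 has the smallest rise of the testis forms.

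Among the complexes these pairs belong to, the proteasome had 22 of 36 genes lower (61.1%, beside 41.6% of all genes), 5 higher and 9 not called (median -0.83). After centring of the arrays 16 were lower. Psme1, an activator subunit induced by interferon, differed by -6.02, and Psme4, the activator known from the removal of histones in spermatids, rose by 1.83. Oxidative phosphorylation genes were lower in 15 of 31 cases (48.4%, near the share of all genes) and higher in 6 (median -0.53), and 9 were lower after the same centring. Cox8c, a testis form of a cytochrome oxidase subunit, rose by 4.96, while Cox8a differed by -3.92.

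X-linked genes stood lower in round spermatids. Of 373 tested 255 were lower (68.4%) and 52 higher (13.9%), with a median of -2.59. Over 11139 autosomal genes 40.8% were lower and 36.3% higher with a median of -0.16, and on single autosomes the share of lower genes ran from 36.3% to 45.1%. The X median was -2.19 after centring and -2.35 after quantile normalization. Hdac6, a tubulin deacetylase, measured 12.51, 12.19, 12.8 and 13.15 in spermatogonia and 8.22, 6.1, 5.85 and 2.64 in round spermatids. Mbnl3, a splicing regulator, measured 12.07, 11.59, 12.14 and 10.93 and 6.33, 2.72, 2.81 and 3.07, and round spermatid replicate 1 was the highest of its group. Hdac6 and Mbnl3 were picked among genes whose groups do not overlap, so their separation was fixed by the choice. Hccs and Tex13b differed by -8.29 and -6.47. Tsga8, a testis-specific gene, went against the chromosome: it measured 7.61, 9.33, 7.13 and 8.27 in spermatogonia and 13.19, 13.57, 13.17 and 12.8 in round spermatids, a rise of 5.1. By the probe set that represents each gene, 11 of the 373 X-linked genes were exclusive to round spermatids, 51 to spermatogonia and none at a like level. Of the 11139 autosomal genes these were 296, 351 and 292. Counted so, the classes are smaller than those over all probe sets above. Only 7 Y-linked genes were tested, 5 of them lower.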

How the data were processed

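RNA from sorted cells was labelled as biotinylated cRNA and hybridised to Affymetrix arrays by the authors. Each deposited table holds 1 array, with a linear signal intensity per probe set that the authors computed by GC-RMA, a background correction, quantile normalization and summary of probes, in GeneSpring. The GC-RMA version was not given in the sources used here. GC-RMA makes array distributions alike, so global changes in RNA content are not measured, and probes near background have no reliable order. Signal per probe set holds no read depth, and precision rests on 4 arrays a group. Groups and replicate numbers are those of the labels, and 0 columns were left aside.

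Intensities were put on the log2 scale. Probe sets at 5 or more on at least 2 of the 8 arrays were fitted with limma 3.58.1 in R 4.3.3 (lmFit and eBayes, 2 groups, no block) and called at a Benjamini-Hochberg adjusted p below 0.05. Counts and plots were made in Python 3.11.15 (pandas 2.3.3, numpy 2.4.6, matplotlib 3.10.9). The procedure was tested on simulated data. GEO's platform annotation, with symbols updated through RefSeq, gave 18449 of the 20760 tested probe sets a single gene, 555 several and 1756 none. A gene was represented by the probe set with the highest mean over the 8 arrays. For Egfl7, Laptm5, Papola and Polr1a, probe sets of the gene were called in opposite directions.

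Members, gene lists, markers and limits were chosen with earlier results of these data known. Named genes were the 12 largest rises and falls after raising values to 5, the genes highest at a like level, the 3 largest rises and falls of each list with members called against it, the markers, the opposed pairs, the 5 X-linked rises and falls, and the centrins and tektins. Catsper1, Crem, Dnmt1, Dnmt3a, Egr1, Fos, Foxj1, Gopc, Ldha, Ldhc, Mcm7, Meig1, Mybl1, Orc1, Prm3, Rfx2, Sox30 and Spam1 were added after their values were seen. Spermatogonia and round spermatid arrays that share a replicate number deviated together from their group means over the tested probe sets (r = 0.442, 0.161, 0.154 and 0.186). The replicate number therefore entered an alternative fit as a block, while the reported calls come from the fit without it. The labels state no pairing, and numbers 1 and 3 each join arrays of different projects. The array project was read from a data set of the study whose signals equal the deposited ones, and it served as a block. Other alternatives were all 20 arrays, array weights, a trended prior, other filters, floors and limits, 2 other normalizations, and each array left out in turn.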

Additional observations from a re-analysis of the deposited data

Results flagged for a closer look

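In each group of 4 arrays the gap between an extreme array and its neighbour was divided by the range of the group, for the 112 genes named with values, and 17 of 224 groups exceeded Dixon's 95% limit for 4 values. Chance alone passes about 1 in 20 groups. Of the 17, 11 concern round spermatid replicate 1. It was the highest of its group for transcripts that are abundant in spermatogonia, namely Cd74 (ratio 0.966), Dkc1 (0.953), Zbtb16 (0.906), Mbnl3 (0.903), Mcm4 (0.890), Hspa1b (0.869), Mcm2 (0.849) and Rpl22 (0.829). It was the lowest for Izumo1 (0.906), Aurka (0.895) and Gopc (0.883).

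Round spermatid replicate 4 was the lowest of its group for Kit (0.980), at 3.5 beside 4.81 to 4.84, for Odf1 (0.968) and for Tmem190 (0.857), at 10.4 beside 12.1 to 12.4. Round spermatid replicate 2 was the lowest for Ldhc (0.879). In spermatogonia, replicate 2 was the lowest for Rps29 (0.966) and the highest for Tmem249 (0.851), at 4.89 beside 3.56 to 3.76. In Kit and Cd74 in round spermatids and Tmem249 in spermatogonia all 4 values lie under log2 5, where signals have no reliable order. Rps29 was the highest signal of spermatogonia replicates 1 to 3, so its low value is the top of that array's scale. What sets these arrays apart was not tested.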

How the results depend on the processing

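Of 532 recomputed values of 26 counts, 516 stayed within 1.5 times the reported count. With the replicate block, 15909 probe sets were called, 15319 of them also without it and 0 in the opposite direction, and the block moved none of the 26 counts by over 1.5 times. The share of calls that were higher was 43.6%, and 51.5% after centring and 48.0% after quantile normalization. A filter of log2 7 on 4 arrays gave 5721 lower probe sets, 10 lower immediate early genes and 27 higher X-linked genes, with fewer probe sets tested. Probe sets exclusive to round spermatids numbered 766, 248 and 214 with on from 6, on from 8 and off under 4, and 707 without spermatogonia replicates 1 and 2. Those exclusive to spermatogonia numbered 1265, 317 and 249 at the same limits. High at a like level were 643 from log2 9, 247 from 11, and 8 for an interval within 0.5. Spermatid chromatin genes higher in round spermatids were 11 without spermatogonia replicates 1 and 2, and oxidative phosphorylation genes lower were 9 after centring. Pgk2 differed by -0.00418 within project 5. The causes were not tested.

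Leaving out each array in turn gave 14627 to 15310 calls (6284 to 6769 higher and 8281 to 8598 lower), 470 to 604 probe sets exclusive to round spermatids, 741 to 1118 exclusive to spermatogonia and 330 to 419 at a like level.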
